A study of Mus musculus with 22 samples.

Results

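The genes described here encode 9 enzymes that make, salvage or break down deoxynucleotides, the building blocks of DNA: Rrm1, Rrm2, Rrm2b, Tk1, Tyms, Dut, Dck, Dctd and Samhd1. They were chosen by symbol, and all 9 of the 9 symbols sought were among the 11208 genes of the deposited expression table. RNA was sequenced from NIH/3T3 cells, an established line of mouse fibroblasts, with a stably integrated construct that doxycycline switches on and that carried either E2F1 (the E2F1 line) or nothing (empty vector, the EV line). Every culture was first starved for 48 h in medium with 0.25% serum. The E2F1 line was sampled at 0, 2, 6 and 12 h of 500 ng/ml doxycycline, the EV line at those 4 times as well, and the EV line also at 2, 6 and 12 h after return to 10% serum. This gave 11 groups of 2 libraries, 22 in all, and the EV 0 h libraries served as the start of both the doxycycline and the serum course of that line. The labels do not say whether a line was 1 clone or a pool, nor whether the libraries of a group came from separate cultures, so the p-values measure a spread that may be technical.

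DNA replication needs balanced deoxynucleotides, and dividing cells raise the supply around the entry into S phase. Ribonucleotide reductase, built from the large subunit Rrm1 and the small subunit Rrm2, converts ribonucleotides to deoxynucleotides and sets the pace of the pathway, while Rrm2b is an alternative small subunit that p53 can induce and that serves cells outside S phase. Dctd (dCMP deaminase) and Dut (dUTPase) make dUMP, Tyms (thymidylate synthase) methylates it to dTMP, Tk1 and Dck rescue nucleosides from outside the pathway, and Samhd1 hydrolyses deoxynucleoside triphosphates. E2F1 is a transcription factor of the G1/S transition, and several of these genes are textbook E2F targets.

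Values are the authors' normalized counts, rounded to whole numbers, and every log2 change is on the log2(value + 1) scale with its standard error and adjusted p from limma. A gene was called where that p was at most 0.05. Library totals ran from 34014608 to 46057140 normalized counts and medians from 1242.5 to 1434.5. All 10 fibroblast markers sought were in the table, with a summed level of 671797 to 1389347, and 0 of 5 epithelial, 0 of 4 leukocyte and 0 of 3 endothelial markers were. In the E2F1 line mouse E2f1 itself held 1703 and 1637 before induction, 3806 and 3602 after 6 h, and 2683 and 2845 after 12 h. Its log2 changes there were 1.15 (adjusted p = 9.61e-08) at 6 h and 0.73 (adjusted p = 1.65e-05) at 12 h, against -0.02 (adjusted p = 0.946) at 2 h. With serum E2f1 was lowest of all groups at 2 h (802 and 740, log2 change -1.09, adjusted p = 5.76e-08) and highest at 12 h (4615 and 4247, log2 change 1.43, adjusted p = 4.12e-09). A construct of another sequence need not be counted under the mouse gene.

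Some libraries stood apart from the others of their line or from each other. Outside the 2 h libraries, 7 genes stood in the E2F1 line at 8 or more times their EV level. The EV libraries at 2 h of doxycycline stood at a median of 0.463 and 0.39 of the way (log2) from the EV level to the E2F1 level of these genes, and the E2F1 libraries at 2 h at 0.883 and 0.855. The 7 genes were picked without the 2 h libraries, so the other libraries lie near the ends of this scale by choice. Why the 2 h libraries lay between was not tested. Every comparison at 2 h of doxycycline below rests on these libraries. The EV 0 h libraries also differed for the deoxynucleotide genes: 7 of 9 were lower in replicate 1, with a median log2 difference of -0.49, where the median absolute difference over all genes was 0.15. At 6 h of doxycycline in the EV line 9 of 9 were lower in replicate 1, with a median of -0.33. Where leaving out 1 library changed a call of the 9 genes, that is given with the gene. For other genes this was not examined.

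Promoter stretches are shown because the genes, which serve one pathway, did not all respond alike. RefSeq windows from 250 bases before the start (build GRCm38.p6) matched 8 of 9 symbols, in 10 windows. Letters of the E2F site were searched on both strands, with CCAAT (the NF-Y site) and TTTGAA (the cell cycle homology region, CHR). The 8-base E2F letters TTTCCCGC, TTTCGCGC, TTTGCCGC and TTTGGCGC were in the windows of 0 of 8 genes, and in 1.86% of all 32817 windows. Their 7-base form without the first T was in 2 of 8 (7.89% of all windows). The core letters TCCCGC or TGGCGC, which overlap the longer forms, were in 6 of 8, namely Rrm1, Rrm2, Tk1, Dut, Dck and Dctd (23.4% of all windows). In Dut and Tk1 these matches lay past the GENCODE start, inside the annotated gene. The counts are of genes, of which Dctd had 3 windows, while the percentages are of single windows. CCAAT was in 3 of 8 (33.8%) and TTTGAA in 1 of 8 (16%). The stretches below lie outside GENCODE exons and are written 5′ to 3′ on the gene's strand, with core letters and CCAAT in capitals, on either strand. They are chr7:102441575-102441694 (plus strand), chr12:24708121-24708240 (plus), chr5:88764876-88764995 (plus), chr8:48109838-48109957 (plus, before a start inside Dctd), chr8:48098972-48099091 (plus, before the annotated start of Dctd) and chr5:30073626-30073745 (minus).
Rrm1: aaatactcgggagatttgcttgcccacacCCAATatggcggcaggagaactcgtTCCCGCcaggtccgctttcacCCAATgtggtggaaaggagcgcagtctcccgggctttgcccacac
Rrm2: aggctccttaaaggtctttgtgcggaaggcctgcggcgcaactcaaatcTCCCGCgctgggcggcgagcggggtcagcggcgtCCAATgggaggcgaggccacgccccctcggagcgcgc
Dck: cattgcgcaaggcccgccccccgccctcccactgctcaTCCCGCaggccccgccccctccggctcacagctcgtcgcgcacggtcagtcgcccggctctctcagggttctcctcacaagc
Dctd inner start: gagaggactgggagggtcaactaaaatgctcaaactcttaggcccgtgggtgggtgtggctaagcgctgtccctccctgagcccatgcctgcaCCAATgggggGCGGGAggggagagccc
Dctd gene start: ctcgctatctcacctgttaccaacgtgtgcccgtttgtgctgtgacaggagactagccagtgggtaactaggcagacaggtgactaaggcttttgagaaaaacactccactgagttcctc
Tyms: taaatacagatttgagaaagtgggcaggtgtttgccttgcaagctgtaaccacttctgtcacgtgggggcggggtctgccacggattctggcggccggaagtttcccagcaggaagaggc
The Rrm1 stretch holds a CCAAT on each side of its core letters, the stretches of Rrm2 and of the Dctd inner start hold one CCAAT each, and the Tyms stretch, of a gene that moved with Rrm1 and Rrm2, holds none of these letters. Dctd had 3 windows: the core letters and CCAAT were in the 2 overlapping windows of inner starts and not in the window before its annotated start. A match is a run of letters and does not show binding, and only these windows were searched.

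The first question was how the supply genes followed E2F1 induction, serum, and doxycycline with an empty vector. In the E2F1 line 7 of 9 were higher and 1 lower at 6 h, against 51.7% of all genes called in either direction (28.8% higher and 22.9% lower). At 12 h 8 of 9 were higher and 1 lower, against 61.5% of all genes (31.8% higher and 29.7% lower), with a median log2 change of 2.01 for the 9 genes and -0.02 for all genes. At 2 h limma called 0 of 9, against 1.86% of all genes (0.865% higher and 0.99% lower), where 1676 genes had an unadjusted p under 0.05. There 5 of 9 genes (Rrm1, Rrm2, Tyms, Dck and Samhd1) had both libraries above both 0 h libraries and 0 of 9 both below, against 27.3% and 23.1% of all genes. No tool other than limma was run. In bulk RNA, fewer cells expressing a gene and less of its RNA per cell cannot be told apart, here and in every comparison. A fit of the compared groups alone called Rrm2 at 2 h (adjusted p = 0.0438).

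Serum for 2 h left 0 of 9 higher and 5 of 9 lower, against 70.9% of all genes called (37.5% higher and 33.5% lower). At 6 h 2 of 9 were higher and 3 of 9 lower (67.5% of all genes, 36.5% higher and 31% lower). At 12 h 8 of 9 were higher and 0 lower (65.7%, 36% higher and 29.7% lower), with a median log2 change of 1.77 for the 9 genes and 0.05 for all genes. Doxycycline in the EV line raised 0 of 9 at any time. Limma called 0 of 9 at 2 h (7.35% of all genes, 4.93% higher and 2.43% lower, with 2612 at an unadjusted p under 0.05), 0 of 9 at 6 h (0.134% of all genes, 15 of them, with 661 at an unadjusted p under 0.05), and 4 of 9, all lower, at 12 h (4.17% of all genes, 0.749% higher and 3.42% lower).

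**Figure D1:**
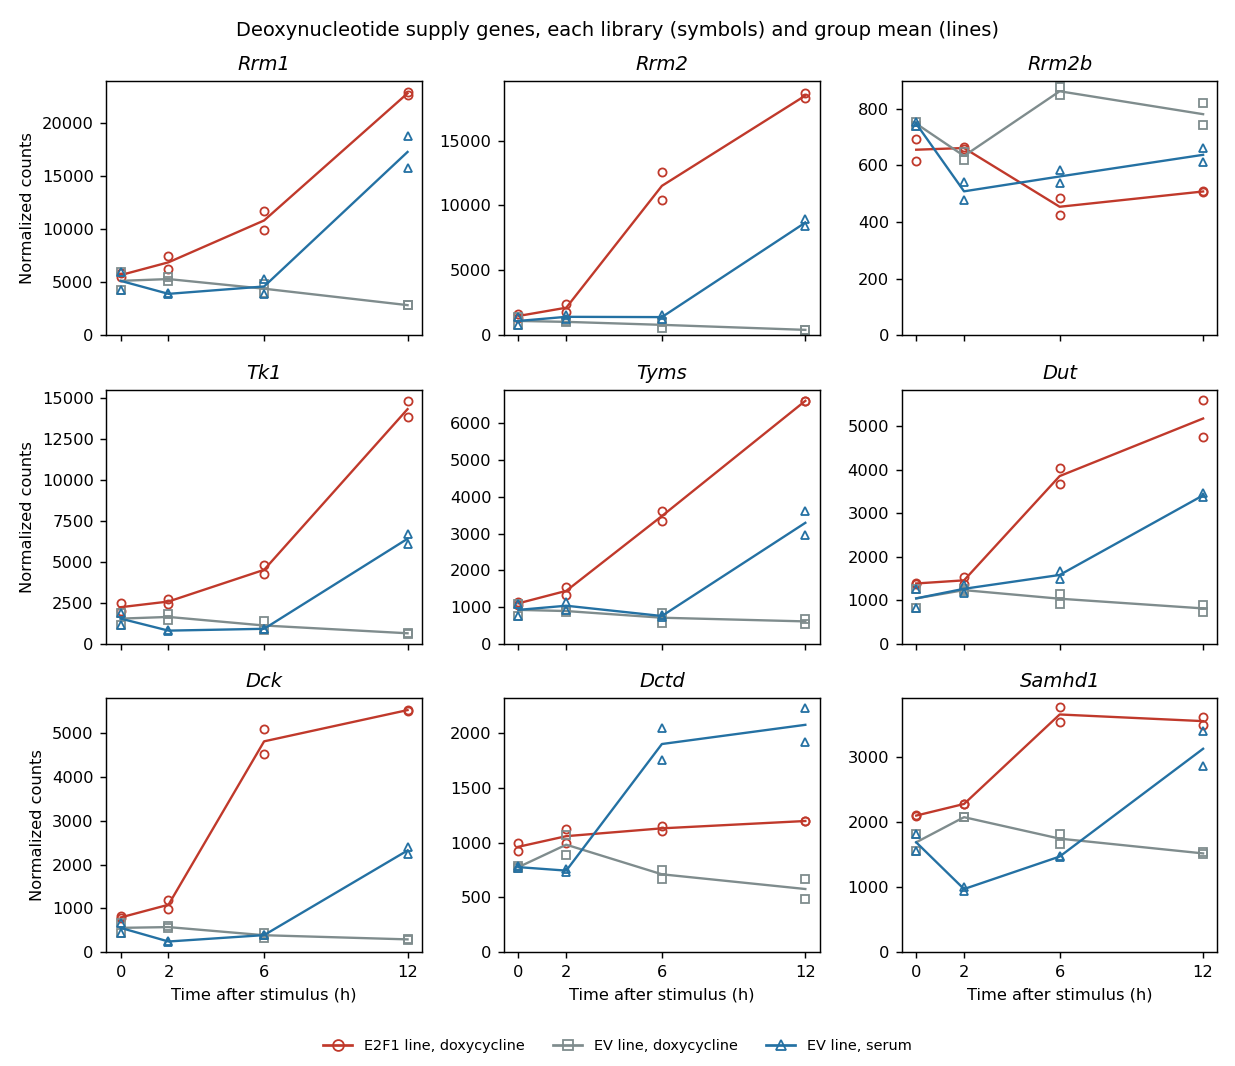
Normalized counts (vertical axis, from 0) of each gene against hours after the stimulus, with each library as a symbol and the group mean as a line; the EV 0 h libraries start both EV courses. Rrm2 reached 18684 and 18266 at 12 h in the E2F1 line, while Rrm2b stayed between 423 and 875 in every library.

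**Figure D2:**
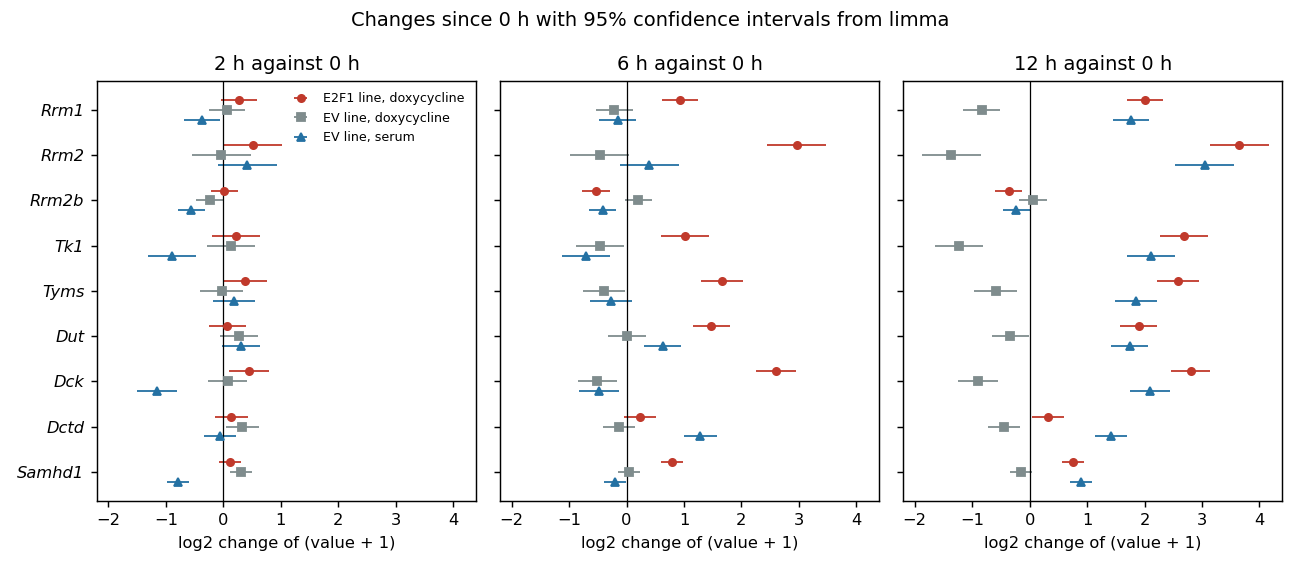
Log2 change since 0 h (horizontal axis) with 95% confidence intervals for each gene at 2, 6 and 12 h in the 3 courses. At 6 h the intervals of Rrm1, Rrm2, Tk1, Tyms, Dut, Dck and Samhd1 in the E2F1 line lay to the right of those in both EV courses. At 12 h the Dctd interval of the serum course lay to the right of the other 2.

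Rrm2, the S phase small subunit of the reductase (ENSMUSG00000020649.11, GRCm38 chromosome 12, 24708241 to 24714146), had the largest rise of the 9 genes in the E2F1 line and with serum at 12 h. In the E2F1 line its libraries held 1617 and 1341 normalized counts at 0 h, 1796 and 2438 at 2 h, 12582 and 10444 at 6 h, and 18684 and 18266 at 12 h. Each later time lay above both 0 h libraries. The log2 change was 0.51 (SE 0.245, adjusted p = 0.345) at 2 h, 2.96 (SE 0.245, adjusted p = 1.52e-08) at 6 h and 3.65 (SE 0.245, adjusted p = 1.11e-09) at 12 h, a 12.5-fold rise. With serum the libraries held 1581 and 1246 at 2 h, 1221 and 1562 at 6 h, and 8968 and 8394 at 12 h, from 785 and 1406 at 0 h. The 2 and 6 h libraries overlapped those at 0 h, with log2 changes of 0.42 (adjusted p = 0.136) and 0.39 (adjusted p = 0.163), and the 12 h libraries stood 8.25-fold higher (adjusted p = 7.3e-09). Without EV 0 h replicate 2 the 2 and 6 h changes were 0.84 and 0.81 and were called. With doxycycline in the EV line the values were 1059 and 990 at 2 h, 569 and 1020 at 6 h, and 403 and 413 at 12 h, the lowest of the 11 groups. At 12 h the change of -1.36 (SE 0.245, adjusted p = 0.00418) became -0.94 (adjusted p = 0.142) without EV 0 h replicate 2 and was lost too without EV 12 h replicate 1 (-1.34, adjusted p = 0.0586).

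Rrm1, the large subunit that holds the active site (ENSMUSG00000030978.10, chromosome 7, 102441695 to 102469771), rose less than Rrm2 at each of these times. It overlaps the gene model Gm45399 on its own strand, and reads there may be shared. The E2F1 line had 5846 and 5489 at 0 h, 6246 and 7499 at 2 h, 11751 and 9896 at 6 h, and 22972 and 22672 at 12 h. The changes of 0.93 (SE 0.151, adjusted p = 5.62e-05) at 6 h and 2.01 (SE 0.151, adjusted p = 3.81e-09) at 12 h were both called, and that of 0.27 at 2 h was not (adjusted p = 0.426). Serum lowered Rrm1 first: the libraries held 3849 and 3945 at 2 h against 4271 and 5976 at 0 h, a change of -0.37 (SE 0.151, adjusted p = 0.0339). That call was lost without EV 0 h replicate 2 (-0.13, adjusted p = 0.479) and without either serum 2 h library (adjusted p = 0.112 and 0.082). At 6 h of serum they were at 3908 and 5281, overlapping 0 h (-0.15, adjusted p = 0.379; -0.40, adjusted p = 0.0398, without EV 0 h replicate 1), and at 12 h at 18802 and 15774, a rise of 1.77 (adjusted p = 1.52e-08). Doxycycline in the EV line gave Rrm1 5441 and 5144, 3965 and 4800, and 2848 and 2817 at 2, 6 and 12 h. Its 12 h change of -0.83 (adjusted p = 0.00436) became -0.59 (adjusted p = 0.146) without EV 0 h replicate 2 and had an adjusted p of 0.0541 without EV 12 h replicate 1.

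Rrm2b, the alternative small subunit (ENSMUSG00000022292.16, chromosome 15, 37923952 to 37961318, minus strand), went the other way in the E2F1 line at 6 and 12 h. At 2 h of serum it was called lower, as was Rrm1. It overlaps Gm3362 and, on the other strand, Gm49085, and the use of strand in counting is not stated. The E2F1 line had 616 and 694 at 0 h, 664 and 658 at 2 h, 484 and 423 at 6 h, and 508 and 507 at 12 h. The 6 and 12 h libraries lay below both 0 h libraries, with changes of -0.53 (SE 0.114, adjusted p = 0.000817) and -0.36 (SE 0.114, adjusted p = 0.00967). Without E2F1 0 h replicate 2 the 12 h change was -0.28 and was no longer called (adjusted p = 0.103). Serum gave 540 and 476 at 2 h, 582 and 539 at 6 h, and 662 and 612 at 12 h, from 754 and 740. The falls at 2 h (-0.56, adjusted p = 0.000248) and 6 h (-0.41, adjusted p = 0.0036) were called and the value of -0.23 at 12 h was not (adjusted p = 0.082), though 3 alternative settings called it. Under doxycycline alone the EV line held 647 and 619, 848 and 875, and 820 and 741, and no change was called. Its highest group was EV at 6 h of doxycycline and its lowest E2F1 at 6 h.

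The balance of the reductase messages shifted accordingly. Values per kilobase of exon describe these genes within a library, with no test. All GENCODE exons of a gene were merged, giving 11.012 kb for Rrm1, 2.771 kb for Rrm2 and 9.134 kb for Rrm2b. Which transcripts the cells used is not known, so the level of a share or ratio depends on these lengths. The lengths are the same for every library, so the order of the libraries does not depend on them. In cells of the E2F1 line Rrm2b made up 10.36% and 13.57% of the small subunit messages (Rrm2 plus Rrm2b, per kilobase) before induction, 10.08% and 7.568% after 2 h, 1.154% and 1.214% after 6 h, and 0.818% and 0.835% after 12 h. With serum its share was 9.389% and 10.39% at 2 h, 12.63% and 9.476% at 6 h, and 2.19% and 2.164% at 12 h. In the EV line under doxycycline it was 22.56% and 13.77% at 0 h, 15.64% and 15.94% (within the spread of the 0 h pair) at 2 h, 31.14% and 20.65% at 6 h, and 38.17% and 35.25% at 12 h. Over all 22 libraries Rrm2b itself lay between 423 and 875 normalized counts and Rrm2 between 403 and 18684. The ratio of Rrm2 to Rrm1 per kilobase was 1.099 and 0.971 at 0 h in the E2F1 line, 4.255 and 4.194 at 6 h, and 3.232 and 3.202 at 12 h. With serum at 12 h it was 1.895 and 2.115, and in the EV line at 12 h of doxycycline 0.562 and 0.583. The E2F1 6 h libraries thus held the highest ratio of all 22, and the groups at 6 and 12 h of E2F1 did not overlap any other.

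**Figure D3:**
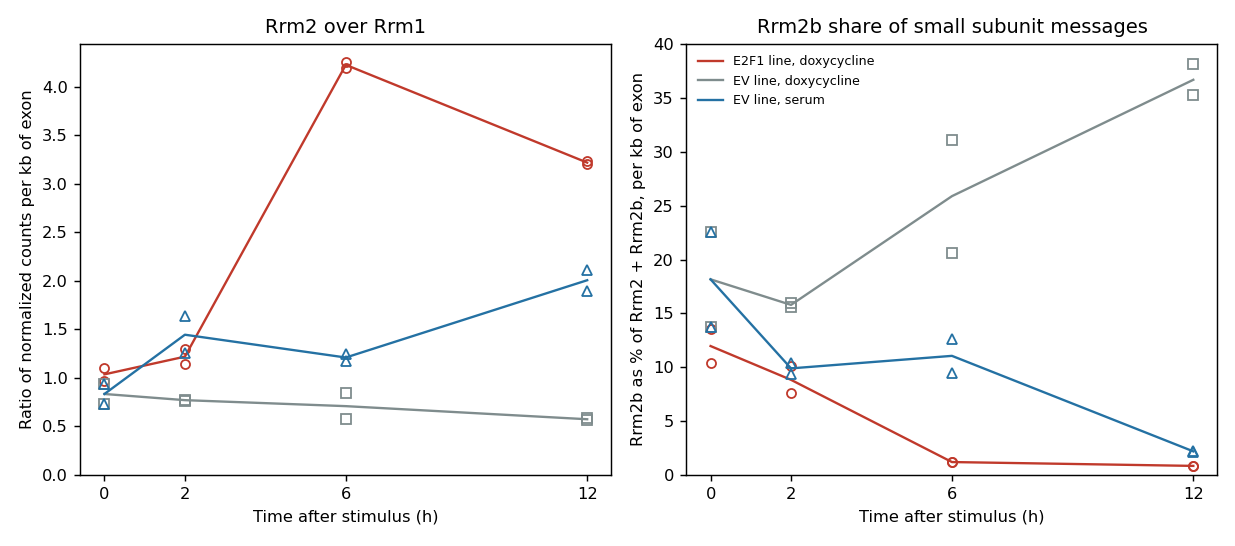
Ratio of Rrm2 to Rrm1 (left) and Rrm2b as a percentage of Rrm2 plus Rrm2b (right), both from normalized counts per kilobase of exon, against hours after the stimulus, with each library as a symbol and the mean as a line. The ratio peaked at 4.255 and 4.194 at 6 h of E2F1 induction, and the Rrm2b share at 12 h was lowest in the E2F1 line and highest in the EV line under doxycycline.

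Of the enzymes that feed thymidylate synthesis, Tyms and Dut rose with both stimuli, while Dctd rose 2.66-fold with serum and 1.25-fold with E2F1 at 12 h. Tyms, which makes dTMP from dUMP (ENSMUSG00000025747.12, chromosome 5, 30058202 to 30073617, minus strand), has a named pseudogene, Tyms-ps, so part of its reads may be misplaced. The E2F1 line had 1136 and 1062 at 0 h, 1330 and 1546 at 2 h, 3605 and 3347 at 6 h, and 6611 and 6618 at 12 h. The changes were 0.38 (adjusted p = 0.311), 1.66 (SE 0.175, adjusted p = 3.35e-07) and 2.59 (SE 0.175, adjusted p = 1.18e-09). Serum gave 1144 and 922 at 2 h, 736 and 770 at 6 h, and 3622 and 2961 at 12 h, from 766 and 1074. The early values overlapped those at 0 h, and the 12 h rise was 1.85 (adjusted p = 5.32e-08). The 6 h value of -0.27 (adjusted p = 0.182) was -0.51 (adjusted p = 0.0299) without EV 0 h replicate 1. The EV line under doxycycline held 913 and 863, 576 and 837, and 530 and 682, and its 12 h change of -0.59 missed the threshold (adjusted p = 0.0667) but was called without EV 0 h replicate 1 (-0.84, adjusted p = 0.0126).

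Dut, which removes dUTP and yields dUMP (ENSMUSG00000027203.15, chromosome 2, 125247190 to 125258608), was the one gene besides Dctd that serum had raised by 6 h. Its serum libraries held 1163 and 1357 at 2 h, 1496 and 1660 at 6 h, and 3457 and 3358 at 12 h, from 828 and 1252. The 2 h libraries overlapped those at 0 h (0.30, adjusted p = 0.0894), and without EV 0 h replicate 2 the change was 0.60 and was called (adjusted p = 0.0018). Both 6 h libraries exceeded both at 0 h, by 0.63 (SE 0.155, adjusted p = 0.00159), or by 0.33 (adjusted p = 0.0634) without EV 0 h replicate 1, and the 12 h rise was 1.74 (adjusted p = 2.64e-08). The E2F1 line held 1362 and 1403 at 0 h, 1375 and 1534 at 2 h, 3660 and 4039 at 6 h, and 4750 and 5595 at 12 h. The rises of 1.48 (adjusted p = 3.33e-07) at 6 h and 1.90 (adjusted p = 1.07e-08) at 12 h came after no call at 2 h (0.07, adjusted p = 0.884). Under doxycycline the EV line had 1210 and 1249, 916 and 1149, and 738 and 881, with no call. Without EV 0 h replicate 2 the 2 h value of 0.27 was 0.57 (adjusted p = 0.0404), and without replicate 1 the 12 h value of -0.34 was -0.63 (adjusted p = 0.0138).

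Dctd, the deaminase that turns dCMP into dUMP (ENSMUSG00000031562.15, chromosome 8, 48099092 to 48153233), had the largest difference between E2F1 and serum at 12 h and was the one gene whose E2F1 change was called below that of serum at 6 and 12 h. Serum took it from 768 and 786 at 0 h through 758 and 732 at 2 h to 2048 and 1756 at 6 h and 2235 and 1920 at 12 h. The 6 and 12 h libraries overlapped each other and lay above all other groups, with rises of 1.29 (SE 0.135, adjusted p = 1.44e-07) and 1.41 (SE 0.135, adjusted p = 6.12e-08). In the E2F1 line it held 999 and 927, 1121 and 999, 1106 and 1157, and 1198 and 1199 at 0, 2, 6 and 12 h. The 12 h change of 0.32 (SE 0.135) had an adjusted p = 0.05, at the threshold, and 10 of 13 alternative settings lost the call, among them each fit that left out 1 of the 4 libraries compared (0.26 to 0.37). The EV line under doxycycline had 1074 and 890, 673 and 750, and 489 and 665, with -0.45 at 12 h (adjusted p = 0.0745), or -0.67 (adjusted p = 0.0177) without EV 12 h replicate 2.

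Both salvage kinases rose with E2F1 and, later, with serum, and both fell first when serum was added. Dck, which phosphorylates deoxycytidine and the purine deoxynucleosides (ENSMUSG00000029366.10, chromosome 5, 88764996 to 88783281), reached most of its final level by 6 h in the E2F1 line. It held 769 and 815 at 0 h, 978 and 1187 at 2 h, 5103 and 4523 at 6 h, and 5537 and 5516 at 12 h. The changes were 0.44 (adjusted p = 0.2), 2.60 (SE 0.163, adjusted p = 4.37e-10) and 2.80 (SE 0.163, adjusted p = 2.27e-10). Serum first brought it from 441 and 668 to 241 and 245 at 2 h, its lowest group, a fall of 1.16 on the log2 scale (SE 0.163, adjusted p = 4.55e-06). It then had 389 and 389 at 6 h, with a change of -0.48 (adjusted p = 0.0149), and 2410 and 2234 at 12 h, a rise of 2.09 (adjusted p = 4.97e-09). The 6 h call was lost without EV 0 h replicate 2 (-0.18, adjusted p = 0.347), without serum 6 h replicate 2 (adjusted p = 0.0502) and under quantile normalization (-0.32, adjusted p = 0.0951). Doxycycline in the EV line gave 589 and 555, 328 and 445, and 274 and 309. The 12 h change of -0.90 (adjusted p = 0.00462) became -0.60 (adjusted p = 0.156) without EV 0 h replicate 2 and -0.81 (adjusted p = 0.0804) without EV 12 h replicate 1. At 6 h it was called only without EV 0 h replicate 1 (-0.80, adjusted p = 0.0418).

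Tk1, the cytosolic thymidine kinase (ENSMUSG00000025574.13, chromosome 11, 117815526 to 117826092, minus strand), overlaps Afmid and Gm20708 on the other strand. E2F1 line libraries held 2466 and 1989 at 0 h, 2396 and 2752 at 2 h, 4781 and 4242 at 6 h, and 13843 and 14817 at 12 h. Its rise was 1.02 (SE 0.198, adjusted p = 0.000326) at 6 h and 2.69 (SE 0.198, adjusted p = 2.94e-09) at 12 h, so more of it fell in the later interval than for Dck. Serum gave 808 and 783 at 2 h and 909 and 906 at 6 h, below the 1169 and 1889 of 0 h, and 6711 and 6110 at 12 h. The changes were -0.90 (adjusted p = 0.000514), -0.71 (adjusted p = 0.00407) and 2.11 (adjusted p = 5.02e-08), and the 6 h call was lost without EV 0 h replicate 2 (-0.37, adjusted p = 0.125). The EV line under doxycycline held 1822 and 1443, 851 and 1367, and 657 and 611. Its 12 h change of -1.23 (SE 0.198, adjusted p = 0.00251) was -0.88 (adjusted p = 0.0921) without EV 0 h replicate 2.

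Samhd1, the enzyme that breaks deoxynucleoside triphosphates down (ENSMUSG00000027639.16, chromosome 2, 157097533 to 157135265, minus strand), rose together with the enzymes that make them. The E2F1 line held 2096 and 2111 at 0 h, 2285 and 2280 at 2 h, 3773 and 3549 at 6 h, and 3493 and 3624 at 12 h. The rises of 0.80 (SE 0.0906, adjusted p = 8.14e-07) at 6 h and 0.76 (SE 0.0906, adjusted p = 1.1e-06) at 12 h were smaller than those of the 6 synthesis and salvage genes that rose at both times, and the 6 and 12 h libraries overlapped. Serum lowered it from 1826 and 1558 to 947 and 997 at 2 h (-0.80, SE 0.0906, adjusted p = 3.05e-07), its lowest group. It then had 1487 and 1458 at 6 h (-0.20, adjusted p = 0.0638) and 3404 and 2862 at 12 h (0.89, adjusted p = 1.36e-07). Equal library totals, quantile normalization and the fit without EV 0 h replicate 2 called the 6 h value lower. The EV line under doxycycline held 2077 and 2081, 1673 and 1824, and 1535 and 1507, with 0.30 at 2 h (adjusted p = 0.0503), a value just short of the threshold that 5 alternative settings called.

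The next comparison asked what the E2F1 construct added to doxycycline, vector and time. The difference between the log2 changes of the lines was called higher for 7 of 9 genes and lower for 1 of 9 at 6 h, against 34.5% of all genes (22.2% higher and 12.3% lower). At 12 h it was called higher for 8 of 9 and lower for 1 of 9, against 50.5% (27.3% higher and 23.3% lower). At 2 h limma called 0 of 9, against 0.143% of all genes (0.0535% higher and 0.0892% lower), with 872 at an unadjusted p under 0.05. Rrm2 had the largest difference at 12 h, 5.01 (SE 0.346, 95% interval 4.28 to 5.74, adjusted p = 6.11e-09), which joins its rise in one line to its fall in the other. Tk1 followed with 3.92 (SE 0.28), Dck with 3.70 (SE 0.231), Tyms with 3.18 (SE 0.247), Rrm1 with 2.84 (SE 0.213) and Dut with 2.23 (SE 0.22). Dctd (0.76, adjusted p = 0.00277) and Samhd1 (0.91, adjusted p = 1.28e-05) differed less. The Dctd difference joins 0.32 in the E2F1 line, at the threshold, to a larger change of -0.45 in the EV line that was not called. Rrm2b had -0.74 (adjusted p = 0.00161) at 6 h and -0.43 (adjusted p = 0.0344) at 12 h, and the 12 h call was lost in 6 of the 8 fits that left out 1 library (-0.34 to -0.44 among those 6). Before any stimulus the lines differed in 2 of 9 genes, both higher in the E2F1 line (15% of all genes called, 8.86% higher and 6.17% lower): Dck by 0.54 (adjusted p = 0.0324) and Samhd1 by 0.32 (adjusted p = 0.0247). The Dck call was lost without either E2F1 0 h library or EV 0 h replicate 1 (adjusted p of 0.104 to 0.389), and the Samhd1 call without either E2F1 0 h library or EV 0 h replicate 2 (adjusted p of 0.104 to 0.219). Without EV 0 h replicate 2, Rrm2 (0.91, adjusted p = 0.0282), Tk1 (0.92, adjusted p = 0.00727) and Dut (0.74, adjusted p = 0.00443) were called higher as well.

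E2F1 and serum were then compared as stimuli, each against its own line at 0 h. No group of the E2F1 line received serum, so line, doxycycline and stimulus cannot be told apart in any such comparison. At 2 h the E2F1 change was above the serum change for 5 of 9 genes and below it for 0 (56.7% of all genes called, 26.6% higher and 30.2% lower), and those 5 are the ones that serum lowered. Dck differed by 1.60, Tk1 by 1.11, Samhd1 by 0.91, Rrm1 by 0.65 and Rrm2b by 0.57. The Rrm1 call (adjusted p = 0.0149) was lost without EV 0 h replicate 2 (0.41, adjusted p = 0.105) or E2F1 2 h replicate 2 (0.52, adjusted p = 0.0769), and without EV 0 h replicate 2 Dut was called lower (-0.53, adjusted p = 0.0274). At 6 h it was above for 7 of 9 and below for 1 of 9 (57.9%, 30.3% higher and 27.6% lower). Dck differed most, by 3.08 (SE 0.231, adjusted p = 4.83e-09), then Rrm2 by 2.57 (SE 0.346, adjusted p = 5.37e-06), Tyms by 1.93 (SE 0.247) and Tk1 by 1.73 (SE 0.28). Rrm1 differed by 1.08, Samhd1 by 0.99 and Dut by 0.85 (adjusted p = 0.00303). Dctd was the exception, with an E2F1 change below that of serum by -1.05 (SE 0.191, adjusted p = 0.00013).

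By 12 h 2 of 9 genes were above and 1 of 9 below (48.8% of all genes called, 25% higher and 23.8% lower). Tyms (0.74, SE 0.247, adjusted p = 0.0194) and Dck (0.71, SE 0.231, adjusted p = 0.0169) were higher with E2F1, and Dctd was lower (-1.10, SE 0.191, adjusted p = 0.00013). The first 2 calls rested on single libraries: without EV 0 h replicate 2 Tyms had 0.50 (adjusted p = 0.118) and Dck 0.41 (adjusted p = 0.123), and without serum 12 h replicate 2 Tyms had 0.59 (adjusted p = 0.0903) and Dck 0.65 (adjusted p = 0.056). Without E2F1 0 h replicate 2 Tyms had 0.69 (adjusted p = 0.0579), and without E2F1 0 h replicate 1 Dck had 0.67 (adjusted p = 0.0535). For 6 genes no difference was called at 12 h, which does not show that they responded alike. The 95% interval ran from -0.12 to 1.33 for Rrm2, from -0.00237 to 1.17 for Tk1, from -0.21 to 0.69 for Rrm1, from -0.30 to 0.62 for Dut, from -0.40 to 0.14 for Samhd1 and from -0.47 to 0.20 for Rrm2b. Without EV 0 h replicate 1 Rrm2 (1.02, adjusted p = 0.0163) and Tk1 (0.93, adjusted p = 0.00749) were called as well.

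**Figure D4:**
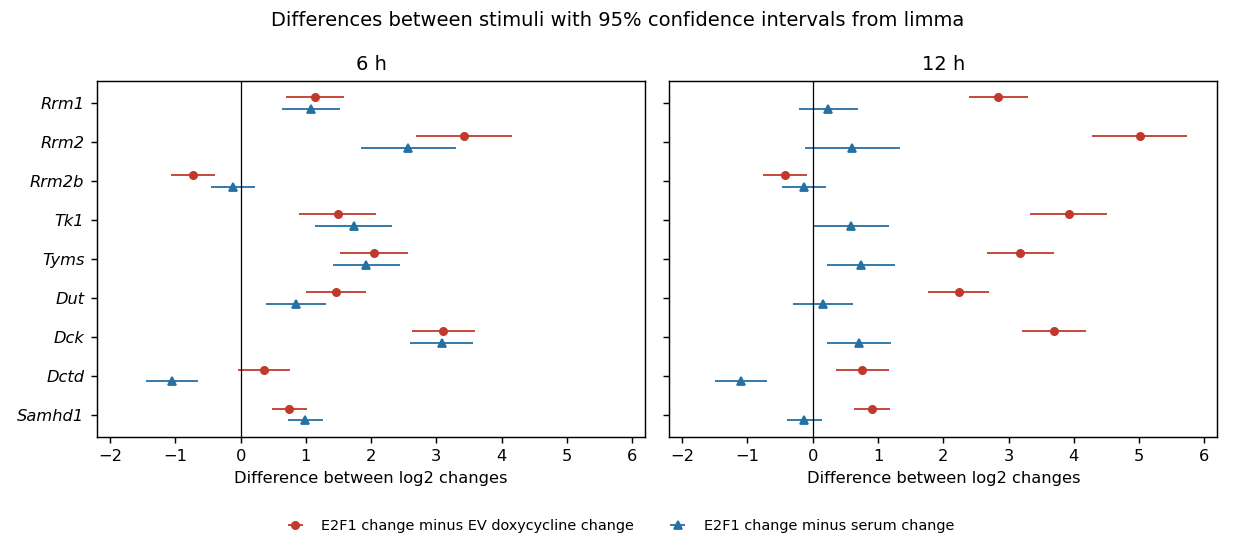
Difference between log2 changes (horizontal axis) with 95% confidence intervals, for E2F1 against EV doxycycline and E2F1 against serum, at 6 and 12 h. Between the panels the E2F1 against serum differences of Dck and Rrm2 shrink from 3.08 and 2.57 to 0.71 and 0.60, while that of Dctd goes from -1.05 to -1.10.

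The interval from 6 to 12 h showed which genes were still moving. In the E2F1 line 5 of 9 were higher at 12 h than at 6 h and 0 lower (35.3% of all genes called, 15.1% higher): Tk1 by 1.67 (SE 0.198, adjusted p = 1.19e-05), Rrm1 by 1.08 (SE 0.151, adjusted p = 4.83e-05), Tyms by 0.93 (SE 0.175, adjusted p = 0.000594), Rrm2 by 0.69 (adjusted p = 0.0365) and Dut by 0.42 (adjusted p = 0.0419). The Rrm2 call was lost whichever of the 4 libraries was left out (adjusted p of 0.0589 to 0.196), and the Dut call without either 6 h library or without 12 h replicate 2 (adjusted p of 0.0731 to 0.26). Dck had 0.20 (adjusted p = 0.356) and Samhd1 -0.04 (adjusted p = 0.753). With serum 7 of 9 were higher at 12 h than at 6 h and 0 lower (39.9% of all genes, 19.3% higher). Tk1 gained 2.82, Rrm2 2.65, Dck 2.57, Tyms 2.12, Rrm1 1.92, Dut 1.11 and Samhd1 1.08 (adjusted p of 7.81e-09 for Tk1 to 1.81e-05 for Dut), and Dctd had 0.13 (adjusted p = 0.481).

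The profiles over the 11 group means of log2(value + 1) show how alike the genes were, as a description of groups that share lines and 0 h libraries. Pearson's r was between 0.91 and 0.99 for every pair among Rrm1, Rrm2, Tk1, Tyms, Dut and Dck. Samhd1 had r of 0.81 to 0.95 with these 6, and Dctd 0.5 to 0.65. Rrm2b had r of -0.31 to -0.70 with the other 8 genes. Among all 11208 genes the most similar to Rrm2 were Pcna (0.993), Pcna-ps2 (0.991) and Mybl2 (0.989). Tk1 was most like Rad54l and Blm (both 0.994), Tyms like Rfc5 (0.993), Dck like Tdp2 (0.993) and Rrm1 like Blm (0.988). Dut was most like Rrm2 (0.989), Samhd1 like Brca2 (0.984), Dctd like Uri1 (0.964) and Rrm2b like Zfp937 (0.949).

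The order of levels was similar for the 6 genes. The E2F1 12 h group was highest for each of them and did not overlap the next group. For Rrm1 and Tk1 serum 12 h came next and then E2F1 6 h, while for Rrm2, Dut and Dck the E2F1 6 h group came before serum 12 h, with no overlap between these groups. For Tyms the E2F1 6 h and serum 12 h libraries overlapped. The EV groups at 0, 2 and 6 h of doxycycline had lower means than every E2F1 line group and serum 12 h, and EV 12 h of doxycycline was lowest for all 6 except Dck, lowest at 2 h of serum.

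Other enzymes of the pathway moved less uniformly. Of the genes given below with a log2 change, Nme1, Uck2, Shmt1, Mthfd2, Gsr and Cdkn1a were already called higher in the E2F1 line at 0 h. None of the others so given was called lower there, where 15% of all genes were called. The changes of those genes thus started from unequal levels. Over all genes at 12 h, 61.5% were called with E2F1 (31.8% higher and 29.7% lower, median -0.02) and 65.7% with serum (36% higher and 29.7% lower, median 0.05). Of 16 further nucleoside and nucleotide kinases in the table, 8 rose and 3 fell at 12 h of E2F1, and 11 rose and 3 fell at 12 h of serum (list medians 0.52 and 0.52), and with E2F1 the share called was near that of all genes. Nme1, a nucleoside diphosphate kinase, separated the stimuli: its libraries held 937 and 655 at 0 h and 750 and 784 at 12 h in the E2F1 line (-0.03, adjusted p = 0.873), but went from 503 and 547 to 1795 and 1808 with serum (1.78, adjusted p = 1.79e-08). The difference of -1.81 was called (adjusted p = 2.6e-06). Uck2, a uridine-cytidine kinase, rose with both stimuli at 12 h, by 0.85 with E2F1 and 1.63 with serum. Of 13 nucleotidases, phosphorylases and pool sanitising enzymes, 9 rose and 2 fell with E2F1 and 8 rose and 1 fell with serum (medians 0.64 and 0.55). Dctpp1, which hydrolyses dCTP and its modified forms, rose by 2.39 and 2.02, Nudt5 by 1.62 and 1.35, and Itpa by 0.45 and 1.14.

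The folate enzymes that supply Tyms rose with both stimuli at 12 h, 4 of 5 with E2F1 and 5 of 5 with serum (medians 1.67 and 2.23). Shmt1 rose by 1.67 with E2F1 and 2.51 with serum, and Mthfd2 by 1.99 and 2.23. Of 7 electron donors of the reductase, 2 rose and 2 fell with E2F1, and 5 rose and 1 fell with serum (medians -0.17 and 0.91), against 61.5% and 65.7% of all genes called, a share near that of the list with E2F1. Glrx (glutaredoxin) changed by -0.36 with E2F1 (adjusted p = 0.0406) and by 1.01 with serum (adjusted p = 8.15e-06), Txnrd1 (thioredoxin reductase) had 0.35 (adjusted p = 0.0523) and 1.33 (adjusted p = 4.5e-07), and Gsr rose by 1.16 and 1.87. Against the EV doxycycline change at 12 h, the E2F1 change of Glrx was not called.

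Of 8 genes whose products act on these enzymes, 8 rose with E2F1 at 12 h, and 6 rose and 1 fell with serum (medians 1.53 and 0.58). Ccnf, the cyclin that marks Rrm2 protein for degradation, rose by 3.26 with E2F1 (adjusted p = 3.05e-08) and 0.74 with serum (adjusted p = 0.0322), a difference of 2.52 (adjusted p = 7.08e-05). The EV 0 h libraries lay far apart for Ccnf (761 and 1608, against 1915 and 1791 at 12 h of serum) and for Ccna2 (1291 and 2575). How far these serum changes rest on 1 library was not examined. Ccna2 rose by 2.67 and 1.22, and Cdk1 by 2.48 and 1.42. Of 6 nucleoside and nucleotide carriers, 3 rose and 1 fell with E2F1 and 3 rose and 2 fell with serum (medians 0.36 and 0.42). For both lists the shares over all genes were 61.5% with E2F1 (31.8% higher and 29.7% lower) and 65.7% with serum (36% higher and 29.7% lower). The share of carriers called with E2F1 was near that of all genes. The transporter genes Slc29a1 and Slc29a2 rose by 1.56 and 0.53 with E2F1 and by 0.80 and 1.98 with serum, and Slc25a33 had -0.37 (adjusted p = 0.161) with E2F1 and rose by 1.22 with serum. Against EV doxycycline at 12 h, 1 of the 6 carriers (Slc29a1) was higher with E2F1 and 2 were lower, where 50.5% of all genes were called. The Slc29a2 change was not called in that comparison.

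Rrm2b was set beside 12 other p53 targets. At 12 h of E2F1 6 of them rose and 1 fell, and with serum 2 rose and 3 fell (medians 0.25 and 0.02). Over all genes 61.5% were called with E2F1 (31.8% higher and 29.7% lower) and 65.7% with serum (36% higher and 29.7% lower). Both directions together did not exceed the share over all genes with either stimulus. Taken alone, the rises with E2F1 did exceed the share of all genes called higher. Cdkn1a, the p21 inhibitor of cyclin-dependent kinases, rose by 2.32 with E2F1 (adjusted p = 1.2e-11) and 0.81 with serum (adjusted p = 1.91e-06). Bbc3 rose by 0.59 with E2F1 (adjusted p = 0.0261) and fell by 1.60 on the log2 scale with serum (adjusted p = 4.89e-06). In the EV line Bbc3 went from 918 and 807 to 1057 and 1224 at 12 h of doxycycline. Against that EV change, 4 of the 12 were higher with E2F1 and 0 lower, Cdkn1a among the 4 and Bbc3 not. Over all genes 27.3% were higher and 23.3% lower in that comparison. Trp53inp1 had 0.21 with E2F1 (adjusted p = 0.164) and -2.14 with serum (adjusted p = 2.67e-10). Rrm2b had -0.36 with E2F1, where Cdkn1a rose, and -0.23 (not called) with serum. At 12 h of doxycycline in the EV line 4.17% of all genes were called (0.749% higher and 3.42% lower). In the lists other than the folate enzymes, 1 of 16 kinases (Dtymk) and 1 of 13 pool enzymes (Dctpp1) were lower. Of the regulators 3 of 8 (Cdc20, Ccna2 and Cdk1) were lower, above the share of all genes called lower. Of the carriers 1 of 6 (Slc29a3) was higher, and 0 electron donors and 0 p53 targets were called. Dtymk, Cdc20 and Slc29a3 are named here after their values were seen.

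The authors' deposited tables list genes with a log2 fold change of at least 2 in size. For E2F1 at 12 h the authors' deposited table holds Rrm2 (3.657), Dck (2.811), Tk1 (2.701), Tyms (2.598) and Rrm1 (2.019). For E2F1 at 6 h it holds Rrm2 (2.994) and Dck (2.634), and for serum at 12 h Rrm2 (3.069), Tk1 (2.132) and Dck (2.121). None of the 9 genes is in the authors' deposited tables for the other 6 comparisons. Dut, Dctd, Samhd1 and Rrm2b are in none of the 9 tables.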

How the data were processed

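Per the labels, polyA RNA of 22 libraries was read from both ends at 150 bp. The submitters' processing notes name FastQC, Trimmomatic, HISAT2, featureCounts and DESeq2 with the mouse build mm10. The annotation, the use of strand and the roles of these tools are not given in the sources used here. The expression values, treated as a score, are whole numbers that the authors deposited as normalized counts. The authors deposited tables of log2 fold changes, and the authors deposited adjusted p-values in the same tables, for 9 comparisons.

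Values were fitted as log2(value + 1) with limma 3.58.1 (R 4.3.3), with 1 mean per group over all 22 libraries, a mean-variance trend and 11 residual degrees of freedom. P-values were two-sided and adjusted by Benjamini and Hochberg over 11208 genes within each comparison, at a threshold of 0.05. The fit was tested on simulated data. No batch or date is labelled, and raw depth is unknown. Gene positions, exon lengths and overlaps come from GENCODE M21, whose gene versions matched 10977 of 11208 identifiers, and promoter windows from RefSeq (GRCm38.p6). All 9 genes are reported in each comparison, further pathway genes are named by rule (up to 3 per list with the largest called change at 12 h of E2F1 or serum, some of which are not reported here), and similar genes by Pearson's r over 11 group means. The genes and lists were chosen with earlier results of these data known. Alternatives were a pseudocount of 8, a mean of at least 500, quantile normalization, equal totals, a replicate block, the compared groups alone, no trend, a test against a 1.5-fold change and leaving out libraries.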

Additional observations from a re-analysis of the deposited data

Results flagged for a closer look

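The log2 changes under doxycycline differed between the E2F1 and EV lines by limma's test of the difference itself, and this is why the following values are given. At 6 h the E2F1 change minus the EV change was 1.14 for Rrm1, 3.423 for Rrm2, -0.7355 for Rrm2b, 1.486 for Tk1, 2.045 for Tyms, 1.464 for Dut, 3.105 for Dck and 0.7479 for Samhd1. At 12 h it was 2.845 for Rrm1, 5.011 for Rrm2, -0.4263 for Rrm2b, 3.921 for Tk1, 3.182 for Tyms, 2.234 for Dut, 3.699 for Dck, 0.7619 for Dctd and 0.9071 for Samhd1. The same EV 0 h and E2F1 0 h libraries enter both times, so the 6 and 12 h differences are not independent. Dctd is in the 12 h values and was not called at 6 h, where its difference of 0.36 had an adjusted p of 0.15 and no test compared the times. Of the 9 genes Rrm2b had the only negative differences.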

How the results depend on the processing

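No choice of setting turned the direction of a called value of the 9 genes. Of 2286 values under the alternatives, 2099 kept their direction and side of the threshold, 104 lost a call, 38 gained one and 45 changed sign, all 45 of them values that were not called. The test against a 1.5-fold change ended the most calls, and leaving out EV 0 h replicate 2 came next. The cause was not tested, except that the former asks for a larger change and that a fit without a library has fewer samples. With 2 libraries a group, 1 library can decide a call near the threshold. Where a group was left with 1 library, it was assumed to vary like the others. Leaving out the 4 libraries of 2 h doxycycline, chosen after seeing the data, ended the calls of Dctd in E2F1 at 12 h (adjusted p = 0.0502) and of Dut in E2F1 from 6 to 12 h (adjusted p = 0.0586). The median log2 change of all genes moved by over 0.1 with equal totals, to -0.345 for serum at 2 h, -0.18 for serum at 6 h and -0.147 for E2F1 at 6 h, and with quantile normalization to -0.136 for E2F1 at 6 h.

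With a test against a 1.5-fold change the number of the 9 genes called became 4 for E2F1 at 6 h (from 8), 0 for EV doxycycline at 12 h (from 4), 1 for serum at 2 h (from 5), 1 for serum at 6 h (from 5), 5 for E2F1 against EV doxycycline at 6 h (from 8), 2 for E2F1 against serum at 2 h (from 5), 5 for E2F1 against serum at 6 h (from 8), 0 for E2F1 against serum at 12 h (from 3), 0 for the lines at 0 h (from 2) and 1 for E2F1 from 6 to 12 h (from 5). With a test against a 1.5-fold change the number of all genes called became 0 for E2F1 at 2 h (from 208), 1052 for E2F1 at 6 h (from 5799), 1837 for E2F1 at 12 h (from 6898), 8 for EV doxycycline at 2 h (from 824), 1 for EV doxycycline at 6 h (from 15), 1 for EV doxycycline at 12 h (from 467), 3525 for serum at 2 h (from 7952), 2674 for serum at 6 h (from 7563), 2265 for serum at 12 h (from 7367), 1 for E2F1 against EV doxycycline at 2 h (from 16), 758 for E2F1 against EV doxycycline at 6 h (from 3866), 1612 for E2F1 against EV doxycycline at 12 h (from 5665), 2467 for E2F1 against serum at 2 h (from 6359), 2478 for E2F1 against serum at 6 h (from 6493), 1486 for E2F1 against serum at 12 h (from 5471), 66 for the lines at 0 h (from 1684), 120 for E2F1 from 6 to 12 h (from 3953) and 626 for serum from 6 to 12 h (from 4472). In fits of the compared groups alone the number of the 9 genes called became 1 for E2F1 at 2 h (from 0), 2 for EV doxycycline at 12 h (from 4) and 0 for the lines at 0 h (from 2). In fits of the compared groups alone the number of all genes called became 596 for E2F1 at 2 h (from 208), 400 for EV doxycycline at 2 h (from 824), 1 for EV doxycycline at 6 h (from 15), 77 for EV doxycycline at 12 h (from 467), 45 for E2F1 against EV doxycycline at 2 h (from 16) and 652 for the lines at 0 h (from 1684). With quantile normalization the number of all genes called became 330 for E2F1 at 2 h (from 208) and 51 for E2F1 against EV doxycycline at 2 h (from 16). Without a mean-variance trend the number of the 9 genes called became 3 for E2F1 from 6 to 12 h (from 5). Without a mean-variance trend the number of all genes called became 132 for E2F1 at 2 h (from 208), 295 for EV doxycycline at 12 h (from 467) and 10 for E2F1 against EV doxycycline at 2 h (from 16). With a pseudocount of 8 the number of the 9 genes called became 1 for EV doxycycline at 2 h (from 0). With a mean of at least 500 the number of the 9 genes called became 1 for EV doxycycline at 2 h (from 0). With a mean of at least 500 the number of all genes called became 5 for E2F1 against EV doxycycline at 2 h (from 16). With equal library totals the number of the 9 genes called became 1 for EV doxycycline at 2 h (from 0), 8 for serum at 6 h (from 5) and 4 for the lines at 0 h (from 2). With the replicate number as a block the number of the 9 genes called became 1 for EV doxycycline at 2 h (from 0). With the replicate number as a block the number of all genes called became 33 for E2F1 against EV doxycycline at 2 h (from 16). With 1 library left out, the number of the 9 genes called ranged from 0 to 1 for EV doxycycline at 2 h, from 0 to 1 for EV doxycycline at 6 h, from 0 to 6 for EV doxycycline at 12 h, from 1 to 5 for E2F1 against serum at 12 h, from 0 to 4 for the lines at 0 h and from 3 to 4 for E2F1 from 6 to 12 h. With 1 library left out, the number of all genes called ranged from 26 to 120 for E2F1 at 2 h, from 157 to 505 for EV doxycycline at 2 h, from 8 to 30 for EV doxycycline at 6 h, from 26 to 803 for EV doxycycline at 12 h, from 2 to 22 for E2F1 against EV doxycycline at 2 h and from 684 to 1236 for the lines at 0 h.

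The replicate numbers were not taken as pairs: over 55 pairs of groups the same-numbered deviations had correlations of -0.28 to 0.45 with a median of 0.03, and 18 were over 0.1. With the number as a replicate block, Samhd1 in EV doxycycline at 2 h (adjusted p = 0.0474), Dut in serum at 2 h (adjusted p = 0.0253) and Dut between the lines at 0 h (adjusted p = 0.0148) gained a call and Dctd in E2F1 at 12 h (adjusted p = 0.0531) lost its call.

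Values that changed sign under some setting follow, and as reported none of them was called. For E2F1 at 2 h, Rrm2b had -0.000373 (quantile normalization) and -0.0702 to 0.102 with 1 library left out and Dut had -0.00768 to 0.15 with 1 library left out. For EV doxycycline at 2 h, Rrm1 had -0.176 to 0.309 with 1 library left out, Rrm2 had -0.457 to 0.383 with 1 library left out, Tk1 had -0.22 to 0.472 with 1 library left out, Tyms had -0.275 to 0.212 with 1 library left out, Dut had -0.0263 to 0.57 with 1 library left out and Dck had -0.224 to 0.374 with 1 library left out. For EV doxycycline at 6 h, Rrm1 had -0.454 to 0.0306 with 1 library left out, Dut had -0.287 to 0.309 with 1 library left out and Samhd1 had -0.0639 to 0.165 with 1 library left out. For EV doxycycline at 12 h, Rrm2b had -0.0116 to 0.134 with 1 library left out. For serum at 2 h, Rrm2 had -0.00252 to 0.838 with 1 library left out, Tyms had -0.195 (equal totals) and -0.0645 to 0.423 with 1 library left out, Dut had -0.0716 (equal totals) and Dctd had 0.0245 (quantile normalization). For serum at 6 h, Rrm1 had -0.395 to 0.089 with 1 library left out and Rrm2 had -0.0258 to 0.814 with 1 library left out. For the lines at 0 h, Rrm1 had -0.0772 to 0.407 with 1 library left out. For E2F1 from 6 to 12 h, Samhd1 had 0.0128 (quantile normalization), 0.0182 (equal totals) and -0.0847 to 0.00361 with 1 library left out. For E2F1 against EV doxycycline at 2 h, Rrm1 had -0.036 to 0.449 with 1 library left out, Tk1 had -0.258 to 0.434 with 1 library left out and Dut had -0.498 to 0.0975 with 1 library left out. For E2F1 against serum at 2 h, Rrm2 had -0.331 to 0.509 with 1 library left out, Tyms had -0.0383 to 0.449 with 1 library left out and Dut had 0.141 (equal totals) and -0.53 to 0.0663 with 1 library left out. For E2F1 against serum at 12 h, Rrm1 had -0.00118 to 0.483 with 1 library left out and Dut had -0.141 to 0.455 with 1 library left out.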
